A study of Ambystoma mexicanum with 12 samples.

Results

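The comparison sets 5 blastemas of juvenile axolotls, collected 10 days after amputation, against 2 limbs of aged axolotls, so it uses 7 of the 12 libraries of the series, chosen by their sample titles. A blastema is the mound of undifferentiated cells that forms under the wound skin of an amputated salamander limb and from which the limb is rebuilt. Its cells come from the tissues of the stump, divide under the control of secreted signals such as FGFs, BMPs and Wnts, and sit in a matrix rich in tenascin and fibronectin, while mature muscle, nerve sheath and dermis are rebuilt later. An aged limb, in contrast, is intact differentiated tissue.

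The blastemas (numbered 2, 3, 5, 6 and 8) and the juvenile limbs came from 8-month-old axolotls of the wild-derived CIBAC colony, and the aged limbs (numbered 1 and 2) from other animals of 8 years. The aged animals formed no blastema after amputation and gave limb tissue without a sample of regrowth, so blastema and aged limb differ in age, in injury and in animal together, and these cannot be told apart by this comparison alone. The 5 juvenile limbs, which by the study's account share the age with the blastemas and the uninjured state with the aged limbs, were therefore set beside it as a bridge. Each library comes from 1 animal. By the study's account, 5 juvenile animals gave limb tissue at amputation and blastemas 10 days later, so blastemas and juvenile limbs appear to share animals. With 2 aged animals the spread of the aged group rests on a single difference. Levels are given as CPM, counts per 1000000 counts of a library after trimmed-mean scaling over the 12 libraries, always in the order blastema 2, 3, 5, 6 and 8, and aged limb 1 and 2.

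The limb that was taken is described differently in the sources: the labels give a posterior leg, the methods the inferior limbs and the results of the study the right forelimb. *TBX5*, a transcription factor that marks forelimbs, was counted in each library, at 13.59, 1.18, 0.563, 1.77 and 6.91 CPM in blastemas, 6.75 and 3.69 CPM in the aged limbs and 3.47, 4.27, 4.68, 4.56 and 8.87 CPM in juvenile limbs. *TBX4*, its hindlimb counterpart, had no count in any of the 7 limbs and stood at 0.574, 0.282, 0.0804, 0.999 and 0.155 CPM in the blastemas. The marker of the labelled hindlimb was thus at 0 in the limb libraries, and that of the forelimb was present.

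Total counts ran from 13392223 to 20663627 in the blastemas and were 17666680 and 16836023 in the aged limbs. The 100 highest genes took 46.3% to 57.3% of counts in the blastemas, 37.3% to 45.5% in the juvenile limbs, and 39.0% and 48.2% in the aged limbs. Aged limb 2 stood apart in muscle: genes of the thick filament and titin summed to 22229 and 2688 CPM in the aged limbs against 9363 to 39873 CPM in juvenile limbs. In bulk tissue, fewer cells of a type and less RNA per cell cannot be told apart.

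Of 22076 genes tested, 97 were higher and 254 lower in blastemas than in aged limbs, at an absolute log2 difference above 1 and an adjusted p under 0.05 by the quasi-likelihood test of edgeR, which is 0.439% and 1.15% of the genes tested, and 1.59% in both directions. Genes meeting both thresholds are termed called. With DESeq2 as the tool, 525 genes were higher and 561 lower, or 2.03% and 2.17% of 25897. The libraries of the 2 groups did not overlap in any of the 351 called genes, against 20.9% of the genes tested overall (8.82% with blastemas higher). The lower genes moved further: their median log2 difference was -7.30, against 3.81 for the higher ones and 0.04 over the genes tested. Absence from a whole group was seen in both directions. Of the 254 lower genes, 34 lacked counts throughout the blastemas. Of the 97 higher ones, 17 lacked counts throughout the aged limbs. The number of calls leaned on single libraries. Without aged limb 1 it was 13 higher and 60 lower, without blastema 6 it was 39 and 124, and without blastema 2 it rose to 158 and 391. Calls made in the full data and held without any 1 of the 7 libraries numbered 9 higher and 52 lower.

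Gene names come from the identifier and name columns of the study's tables, of which the co-expression table was read only over its leading stretch. The parts read name 1924 identifiers, 1361 of them among the genes tested. They hold 1114 genes listed as changed in blastemas, 814 of the co-expression table and 19 listed with age. A gene said to have no name lacks one in these parts, and may be named elsewhere. Named genes made up 45 of the 97 higher and 150 of the 254 lower ones, the rest being known by identifier only. The 304 list members described below were drawn from these tables. The study had listed 107 of them as higher and 156 as lower in the same blastemas against juvenile limbs. Their direction in the blastemas is therefore not independent evidence, and what the comparison adds is their level in the aged limbs. Of all 242 tested genes that the study listed as higher, 42 (17.4%) were called higher than in aged limbs. Of 617 tested genes listed as lower, 152 (24.6%) were called lower. A list with a share near these does not stand out from the genes it was drawn from. Symbols with a number after a point are copies of one gene, and reads shared between copies may have been split or dropped.

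Proteins of the extracellular matrix, the mesh around cells, were called in both directions. The study had listed 18 of the 30 as higher and 12 as lower in these blastemas, so both directions follow from how the list was drawn. Of 30 listed members, 28 passed the filter on low counts, 5 were called higher and 2 lower, with a median log2 difference of 2.34. *TNC*, encoding tenascin-C, an adhesion-modulating protein of embryonic and healing tissue, stood at 1577, 1857, 915, 2252 and 723 CPM in blastemas and 29.6 and 44.4 CPM in the aged limbs. The groups were far apart, and the log2 difference was 5.35 ± 0.68 (SE), adjusted p = 0.0067. Juvenile limbs held 61.6 to 110.3 CPM, nearer to the aged limbs than to the blastemas.

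*LAMA1*, a laminin chain of embryonic basement membranes, was at 23.3, 34.2, 11.7, 39.2 and 23.7 CPM in blastemas and 0.444 and 0.99 CPM in the aged limbs (5.26 ± 0.65 (SE), adjusted p = 0.006). *MFAP2*, a microfibril protein, was at 196, 129.9, 66.5, 114 and 72.4 against 9.11 and 13.2 CPM (3.42 ± 0.55 (SE), adjusted p = 0.019). *LUM.1*, a copy of the collagen-spacing proteoglycan lumican, reached 1.53, 8.14, 4.102, 12.3 and 2.25 CPM with no count in either aged limb, at least 76.9-fold higher when the aged group is set at a floor of 3 counts. For all 3 genes the lowest blastema lay above the higher aged limb. *COL26A1.1*, a minor collagen, was also without a count in the aged limbs and at 0.804 to 3.84 CPM in the blastemas. Fibronectin, *FN1*, had 1152, 1297, 306, 1774 and 377 CPM in blastemas and 120.0 and 178 CPM in the aged limbs, without overlap, but did not pass the test (2.77 ± 0.79 (SE), adjusted p = 0.15), and the fibrillin gene *FBN2* missed it narrowly (4.69 ± 0.95 (SE), adjusted p = 0.052).

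The 2 matrix genes that were lower both encode tenascin-X, a tenascin of mature connective tissue. *TNXB* had 0.861, 0, 0, 0.154 and 0 CPM in blastemas and 58.2 and 68.03 CPM in the aged limbs (-8.42 ± 0.99 (SE), adjusted p = 0.0053), and was called without each of the 7 libraries in turn. *TNXB.3* had no count in the blastemas and 3.87 and 5.08 CPM in the aged limbs, at least 102-fold lower. Tenascin-C and tenascin-X therefore stood in opposite order in the 2 tissues, and juvenile limbs, at 33.0 to 134 CPM of *TNXB*, were on the side of the aged ones.

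Enzymes that cut the matrix were higher where they were called. Of the 11 listed, 10 were drawn from genes the study listed as higher in these blastemas, so the direction is no independent evidence. Of all such genes tested, 17.4% were called higher. Of 11 listed members 9 were tested, 2 were called higher and 0 lower, and the median log2 difference was 3.36. DESeq2 called 8 higher and 0 lower. *MMP11*, a metalloproteinase of remodelling stroma, was at 66.5, 40.6, 17.5, 71.4 and 36.1 CPM in blastemas and in the aged limbs at 0.489 and 0.462 CPM (6.63 ± 0.75 (SE), adjusted p = 0.0045). *ADAMTS17.1*, a secreted protease of connective tissue, was at 35.2, 26.8, 6.92, 49.1 and 21.3 against 1.29 and 1.39 CPM (4.42 ± 0.79 (SE), adjusted p = 0.031). The collagenase gene *MMP13.1* showed how far blastemas can differ among themselves, with 1433, 463, 111, 335 and 34.1 CPM against 0.0444 and 8.25 CPM in the aged limbs, and it was not called (6.92 ± 2.19 (SE), adjusted p = 0.19). Without aged limb 1 none of these enzymes and, of the matrix proteins, only *TNXB* was called.

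**Figure D1:**
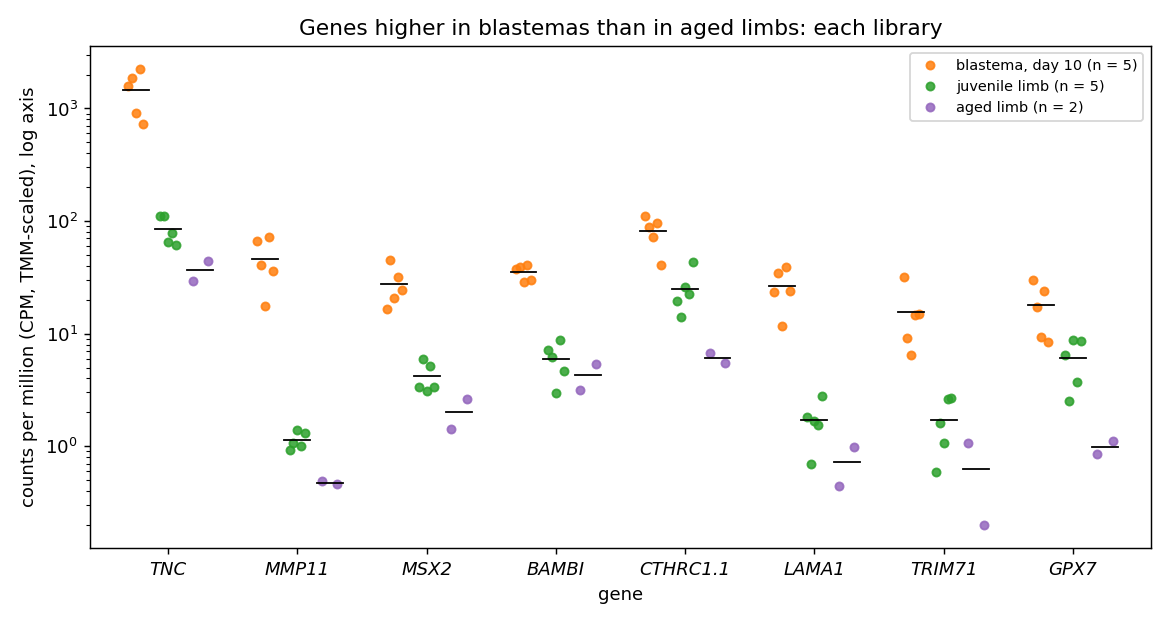
Level of 8 genes called higher in blastemas, in CPM on a log axis, with 1 point per library, a black bar at each group mean, and blastemas (n = 5), juvenile limbs (n = 5) and aged limbs (n = 2) side by side. Each of the 5 blastemas lies above both aged limbs in all 8 genes, for example 28.6 to 40.3 CPM of BAMBI against 3.15 and 5.34 CPM, and in GPX7 and CTHRC1.1 the juvenile limbs lie above the aged limbs and reach up to the lowest blastema.

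Enzymes that fold and cross-link collagen in the secretory pathway shared the direction. 3 of the 13 members, each of them tested, were called higher and 0 lower, with a median log2 difference of 1.89, and the fitted difference of each of the 13 was above 0. All 13 were drawn from genes the study listed as higher in these blastemas, so the shared sign is no independent evidence. *GPX7*, an endoplasmic reticulum peroxidase that aids disulfide formation, had 29.9, 17.4, 9.25, 24.1 and 8.38 CPM in blastemas and 0.844 and 1.12 CPM in the aged limbs (4.23 ± 0.69 (SE), adjusted p = 0.022). *PXDN.1*, a copy of peroxidasin, which links collagen IV, had 91.9, 62.8, 27.9, 61.5 and 29.4 against 6.71 and 2.64 CPM (3.59 ± 0.67 (SE), adjusted p = 0.038), and *P4HA1*, a collagen prolyl hydroxylase, 138, 151, 97.0, 125 and 78.4 against 33.9 and 30.3 CPM (1.92 ± 0.34 (SE), adjusted p = 0.031). *P4HA1* is also a gene of the low-oxygen response, where it was the only 1 of 7 members called. Leaving out aged limb 1, aged limb 2 or blastema 6 ended the calls of the folding list.

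Among the secreted signals, the Wnt pathway, which patterns limb outgrowth, held 5 called genes of 18 tested and 20 listed, each higher in blastemas, with a median log2 difference of 2.398. Of the 18, 15 had a fitted difference above 0 and 3 below, down to -7.22. In 9 each blastema lay above both aged limbs, and in 2 below both. DESeq2 called 10 members higher and 1 lower. The study had listed 13 of the 20 as higher and 5 as lower in these blastemas, so their signs are no independent evidence. *WNT5A*, a ligand of the non-canonical branch, was at 19.5, 60.4, 15.4, 32.1 and 19.9 CPM in blastemas and 1.47 and 3.101 CPM in the aged limbs (3.73 ± 0.68 (SE), adjusted p = 0.033). *TCF7*, a transcription factor that carries the canonical signal, was at 6.41, 32.8, 42.1, 30.8 and 20.03 against 2.399 and 2.05 CPM (3.60 ± 0.71 (SE), adjusted p = 0.047). *CTHRC1.1*, a secreted Wnt cofactor of injured tissue, was at 111, 88.1, 71.99, 96.9 and 40.6 against 6.66 and 5.48 CPM (3.79 ± 0.48 (SE), adjusted p = 0.0067). Blastema 5 was the lowest of the 5 for *WNT5A* and blastema 2 for *TCF7*, and both lay above the aged limbs.

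The second copy, *CTHRC1*, had 122, 61.3, 48.6, 69.98 and 23.9 CPM in blastemas and 4.98 and 2.90 CPM in the aged limbs (4.09 ± 0.71 (SE), adjusted p = 0.028), and the glypican copy *GPC6.2*, a co-receptor at the cell surface, 7.72 to 18.7 against 2.04 and 0.66 CPM (3.34 ± 0.62 (SE), adjusted p = 0.035). The Wnt antagonist gene *APCDD1* did not overlap between the groups either but was not called (2.85 ± 0.63 (SE), adjusted p = 0.068). Blastema 8 was the lowest of the 5 for both copies of *CTHRC1*, and still above the aged limbs. Only 1 of the 18 Wnt members stayed called without blastema 6 or without aged limb 2, and none without aged limb 1.

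Of the TGF-beta and BMP pathway, 3 of 11 tested and 13 listed members were called, all higher, with a median log2 difference of 2.13. The study had listed 10 of the 13 as higher and 3 as lower in these blastemas, so their signs are no independent evidence. *BMP2.2*, a copy of the ligand BMP2, was at 9.66, 17.14, 15.3, 15.4 and 8.00 CPM in blastemas and 1.33 and 2.77 CPM in the aged limbs (2.72 ± 0.48 (SE), adjusted p = 0.031). *BAMBI*, a decoy receptor that dampens the pathway and is itself one of its targets, was at 37.3, 39.2, 28.6, 40.3 and 29.8 against 3.15 and 5.34 CPM (3.09 ± 0.35 (SE), adjusted p = 0.0043). *MSX2*, a homeobox gene induced by BMPs in limb buds, was at 16.6, 44.9, 20.7, 32.0 and 24.6 against 1.42 and 2.64 CPM (3.81 ± 0.51 (SE), adjusted p = 0.0095). None of the 3 genes overlapped between the groups.

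*FSTL1*, a secreted BMP-binding protein, stood without overlap at 792, 489, 219, 491 and 297 CPM in blastemas and 54.9 and 83.1 CPM in the aged limbs. It missed the threshold by edgeR (2.78 ± 0.58 (SE), adjusted p = 0.057) and was called higher by DESeq2. The 2 genes of the list that stayed out of the test were *HJV*, a BMP co-receptor of muscle, with no count in the blastemas and 2.35 and 0.264 CPM in the aged limbs, and myostatin, *MSTN*, a brake on muscle growth, at 0 to 0.141 and 5.73 and 0.198 CPM. The pathway list kept 2 called genes without blastema 3 or 6, and none without aged limb 1.

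None of 17 tested members of the list of other secreted signals and guidance receptors was called by edgeR, although 14 had an unadjusted p under 0.05, 10 of them lay higher in each blastema than in both aged limbs and the median log2 difference was 2.14. DESeq2 called 8 of them higher and 1 lower. *KAZALD1.2*, a copy of a secreted protein gene known from axolotl blastemas, was at 324, 30.7, 12.15, 45.9 and 54.3 CPM against 1.16 and 5.01 CPM in the aged limbs (5.00 ± 1.54 (SE), adjusted p = 0.18). Blastema 2 stood far above the other blastemas in it, as it did in *MMP13.1*.

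Of 24 developmental transcription factors, the study had listed 14 as higher and 7 as lower in these blastemas, so their signs are no independent evidence. Among the 20 tested, fitted differences were above 0 in 14 and below 0 in 6, down to -3.28, with a median of 1.92. In 9 each blastema lay above both aged limbs, and in 4 below both. DESeq2 called 8 higher and 0 lower. By edgeR 3 of the 20 were called higher and 0 lower. Besides *MSX2* these were *ETV4*, a factor downstream of FGF signals, at 52.2, 57.9, 38.2, 39.6 and 36.5 CPM in blastemas and 9.37 and 9.04 CPM in the aged limbs (2.32 ± 0.30 (SE), adjusted p = 0.0078), and *DLX6.1*, a copy of a homeobox gene of skeletal development. *DLX6.1* had 0.861, 1.55, 1.77, 1.69 and 2.48 CPM in blastemas and 0.0444 and 0 CPM in the aged limbs, where it had 1 count, a ratio of 63.5 with a 95% counting interval of 11.2 to 2528. *SALL4* and *SOX4*, factors of progenitor cells, missed the threshold (3.101 ± 0.70 (SE), adjusted p = 0.073 and 2.12 ± 0.43 (SE), adjusted p = 0.052).

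RNA-binding proteins of undifferentiated cells were called higher in 3 of 4 members. All 4 were drawn from genes the study listed as higher in these blastemas, so the direction is no independent evidence. *TRIM71*, a target of the let-7 microRNA in embryos, was at 32.2, 9.23, 6.43, 14.7 and 14.9 CPM in blastemas and 1.07 and 0.198 CPM in the aged limbs (4.59 ± 0.91 (SE), adjusted p = 0.047). *MEX3A* was at 21.8, 26.8, 12.9, 26.3 and 15.06 against 4.31 and 3.17 CPM (2.49 ± 0.41 (SE), adjusted p = 0.023), and *MEX3B* at 20.7, 8.71, 5.71, 9.76 and 10.9 against 1.33 and 0.726 CPM (3.45 ± 0.63 (SE), adjusted p = 0.033). The *MEX3* genes encode RNA-binding proteins that repress translation. None of the 3 calls held without blastema 3, blastema 6 or either aged limb.

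Genes of DNA replication and mitosis gave no call by edgeR, beside 1.59% of all genes tested. Of 13 members 12 were tested, 1 had an unadjusted p under 0.05 and DESeq2 called 1 higher, and the median log2 difference was 0.07. Fitted differences were above 0 in 7 and below 0 in 5. They ran from -0.94 for *UNG* (adjusted p = 0.38) to 2.51 for *CKAP2L* (adjusted p = 0.17). The counts of the list summed to 469 to 591 CPM in blastemas and 435 and 555 CPM in the aged limbs. *PCLAF*, a clamp-binding factor of S phase, had 52.1, 45.4, 33.2, 46.0 and 38.2 CPM in blastemas and 36.3 and 21.8 CPM in the aged limbs (0.61 ± 0.30 (SE), adjusted p = 0.43), and the export GTPase gene *RAN* 264, 253, 251, 253 and 256 against 229.8 and 307 CPM (-0.03 ± 0.25 (SE), adjusted p = 0.98). With *RAN* at such levels, the summed counts rest largely on that gene. The list was drawn from genes named in the study's tables, so it is not a full inventory of the cell cycle. Of its 13 members 11 came from the leading stretch of the co-expression table and not from the genes listed as changed in blastemas. Most members of the lists above came from the latter, so the count of this list cannot be set against theirs. With 12 genes tested, the lack of a call does not show equal replication in the tissues.

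**Figure D2:**
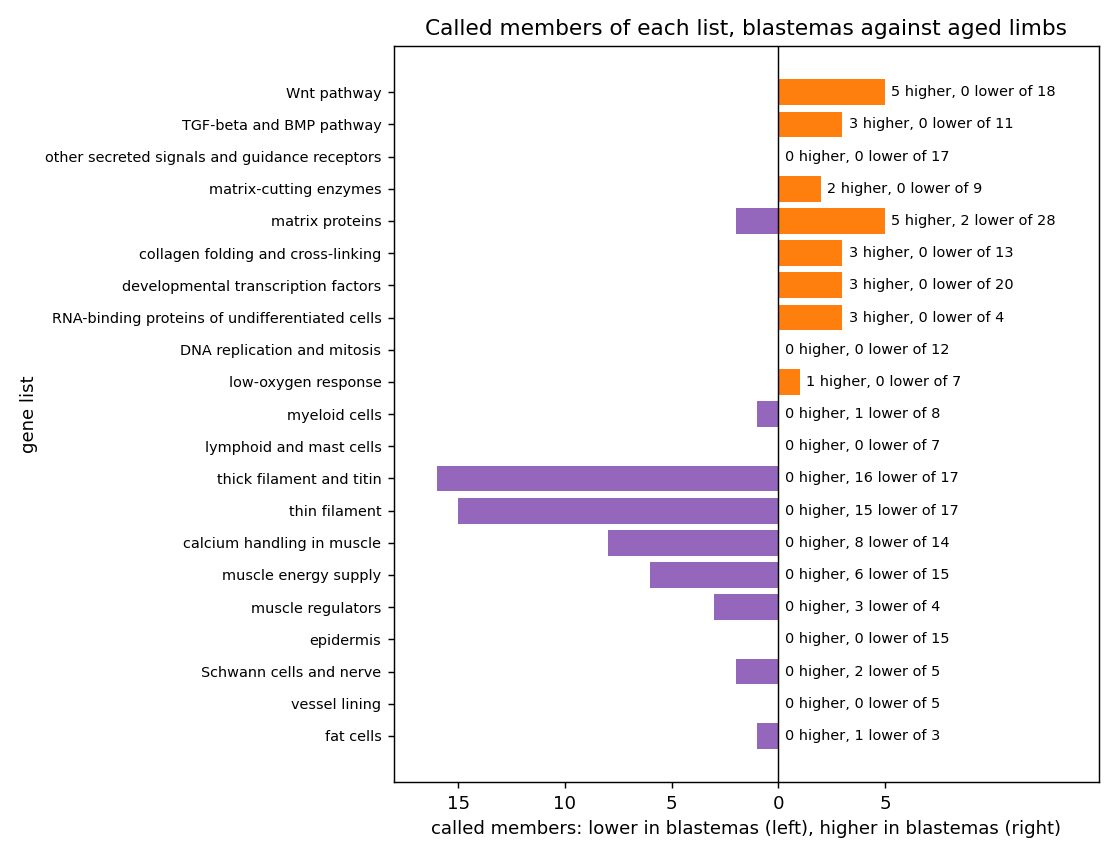
Called members of each gene list in blastemas against aged limbs, with the number of genes on the horizontal axis, those higher in blastemas to the right (orange) and those lower to the left (purple), beside the number tested. Muscle lists hold most of the lower calls, 16 of 17 for the thick filament and 15 of 17 for the thin filament. Signals, matrix and regulators hold the higher ones. Of all tested genes that the study listed as higher in these blastemas, 42 of 242 (17.4%) were called higher. Of those it listed as lower, 152 of 617 (24.6%) were called lower.

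Genes of muscle made up most of the list members called lower. Skeletal muscle contracts by sliding thick filaments of myosin over thin filaments of actin, set off by calcium and paid for by creatine kinase and glycolysis, and genes of each of these steps were lower. For the thick filament and titin, 16 of 17 tested and 22 listed members were called lower, with a median log2 difference of -8.92. The corresponding numbers were 15 of 17 tested and 18 listed for the thin filament (median -9.09), 8 of 14 tested and 17 listed for calcium handling (median -8.33, or -6.97 with 3 members without blastema counts set at their bound), and 6 of 15 tested and 17 listed for energy supply (median -2.70). No member of these lists was called higher, and each member was drawn from genes the study listed as lower in these blastemas.

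*MYL1*, a myosin light chain of fast fibres, stood at 0.287, 0.565, 0.241, 0.384 and 0.466 CPM in blastemas and 1106 and 143 CPM in the aged limbs (-10.55 ± 0.75 (SE), adjusted p = 0.0012). *CKM*, the muscle creatine kinase, stood at 0.287, 0.141, 0.402, 0.0768 and 0.543 against 1179 and 169 CPM (-11.16 ± 0.84 (SE), adjusted p = 0.0012). *CASQ1*, which stores calcium in the sarcoplasmic reticulum, stood at 0.0957, 0.0941, 0.0804, 0 and 0 against 219 and 15.4 CPM (-10.80 ± 1.04 (SE), adjusted p = 0.002). Aged limb 2 held less of each than aged limb 1, and both lay far above each blastema.

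*NEB*, encoding nebulin, the ruler of the thin filament, had no count in the 5 blastemas and 53.9 and 9.83 CPM in the aged limbs, at least 845-fold lower. *CSRP3*, a Z-disc protein, had counts in blastema 5 alone, at 0, 0, 0.241, 0 and 0 CPM, against 388 and 55.8 CPM in the aged limbs, a ratio of 5932 with a 95% counting interval of 2029 to 28770.2. Blastema 8 carried the most of some fibre genes. *MYH2.1*, a fast myosin heavy chain, had 1.34, 1.13, 2.25, 1.38 and 23.6 CPM in the blastemas against 8278 and 976 CPM in the aged limbs (-9.60 ± 1.46 (SE), adjusted p = 0.016), and the titin fragments behaved likewise, with 21.7 CPM of *TTN.6* in blastema 8 and at most 0.67 CPM in the other blastemas.

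In energy supply, *PFKM*, the muscle phosphofructokinase, fell from 46.3 and 4.88 CPM in the aged limbs to 0.287, 0, 0, 0.23 and 0 CPM in the blastemas (-7.99 ± 1.099 (SE), adjusted p = 0.01), whereas glycolytic genes that other tissues also use did not pass, such as *ALDOA* at -0.25 (adjusted p = 0.88). *PDK4*, which turns muscle from the use of glucose to that of fat, was called at 2.11, 2.68, 1.13, 1.61 and 2.79 against 32.6 and 10.2 CPM (-3.34 ± 0.47 (SE), adjusted p = 0.011), and the calcium pump inhibitor *PLN* at 5.17, 3.95, 4.83, 2.07 and 4.43 against 28.6 and 10.6 CPM (-2.23 ± 0.43 (SE), adjusted p = 0.045). Both aged limbs lay above each blastema for these 3 genes. Of 8 muscle regulators 4 passed the filter and 3 were called lower, led by *KLHL41*, which stabilises nebulin, at 0, 0.141, 0.161, 0 and 0.155 against 295 and 33.3 CPM (-10.57 ± 0.92 (SE), adjusted p = 0.0013). The 4 that did not pass included *MYF6*, a factor of differentiated fibres, with no count in the blastemas and 1.69 and 0.66 CPM in the aged limbs. Without aged limb 1, which leaves the aged limb poorer in muscle, 7 thick filament and 9 thin filament genes were called.

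**Figure D3:**
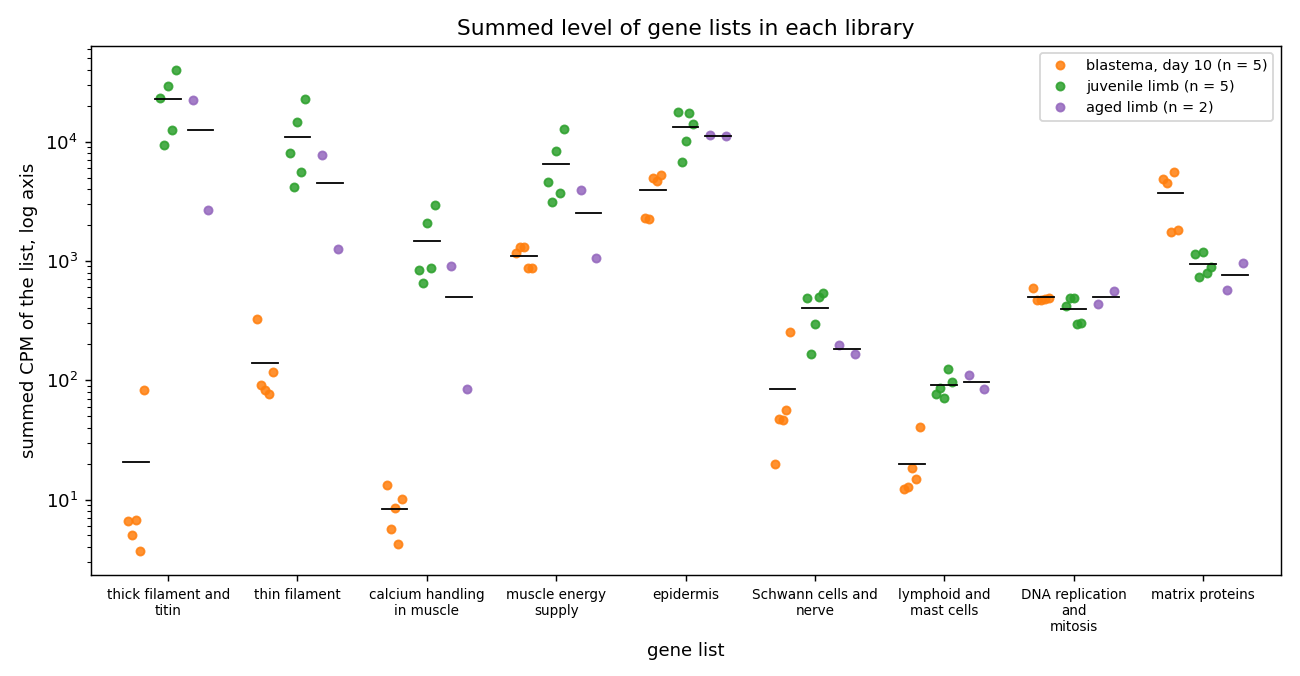
Summed CPM of 9 gene lists in each library, on a log axis, with 1 point per library, a black bar at the group mean, and blastemas (n = 5), juvenile limbs (n = 5) and aged limbs (n = 2) side by side. The thick filament list lies at 3.69 to 82.1 CPM in blastemas and 22229 and 2688 CPM in the aged limbs, and the replication list lies at 469 to 591 and 435 and 555 CPM.

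Lists of other tissues of the limb held few calls. On the list of Schwann cells and nerve, 5 of 7 members were tested, and 2 were called lower and 0 higher. All 7 were drawn from genes the study listed as lower in these blastemas, so the direction is no independent evidence. Of all such genes tested, 24.6% were called lower and 0 higher. *MBP*, a myelin protein, was called at 7.08, 7.63, 9.65, 7.84 and 8.85 CPM in blastemas and 23.2 and 24.0 CPM in the aged limbs (-1.49 ± 0.23 (SE), adjusted p = 0.017). Its groups did not overlap, and the call was lost without blastema 3, blastema 6 or either aged limb. The neuronal filament copy *PRPH.1* overlapped between the groups, at 8.13, 32.8, 25.2, 40.3 and 188 against 117 and 98.2 CPM, with blastema 8 above both aged limbs. The adipokine gene *ADIPOQ*, of fat cells, was called at 3.83, 2.21, 3.22, 2.69 and 2.72 against 46.2 and 7.26 CPM (-3.15 ± 0.55 (SE), adjusted p = 0.03). This call was lost without blastema 3, 5, 6 or 8. It was the only 1 of 3 members of the fat cell list called by edgeR. Fitted differences of that list were below 0 in 2 and above 0 in 1, up to 1.32.

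None of the 15 keratins and other genes of the epidermis was called by edgeR. Each fitted difference was below 0, 12 had an unadjusted p under 0.05, and the median was -1.57. All 15 were drawn from genes the study listed as lower in these blastemas, so the shared sign is no independent evidence. DESeq2 called 6 of them lower. *KRT12.1* had 1079.9, 891, 2274, 2103 and 2281 CPM in blastemas and 4609.6 and 4549 CPM in the aged limbs (-1.37 ± 0.45 (SE), adjusted p = 0.2), and *POF1B*, an actin-binding protein of epithelia, 39.6, 66.8, 54.3, 55.8 and 59.2 against 110.0 and 119.6 CPM (-1.03 ± 0.24 (SE), adjusted p = 0.079). In the vessel lining list neither edgeR nor DESeq2 called any of 5 tested genes, 1 of which had an unadjusted p under 0.05, and the endothelial phosphatase gene *PTPRB* had 15.02, 15.06, 89.7, 55.4 and 158 against 253 and 161 CPM (-1.61 ± 0.79 (SE), adjusted p = 0.42).

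Of 8 myeloid genes 1 was called, *CTSS*, a protease of antigen-presenting cells, at 2.201, 2.35, 1.05, 6.76 and 1.55 CPM in blastemas and 81.7 and 72.3 CPM in the aged limbs (-4.74 ± 0.58 (SE), adjusted p = 0.006). The call held without each library in turn. *CTSS* ran against most of its list, in which fitted differences were above 0 in 5 and below 0 in 3, with a median of 0.26. Against juvenile limbs edgeR called 4 of the 8 higher in blastemas and 1 lower. The study had listed 5 of the 8 as higher and 1 as lower in these blastemas, so their signs are no independent evidence. Lymphoid and mast cell genes summed to 12.25 to 40.6 CPM in blastemas and 110.2 and 83.9 CPM in the aged limbs, and none of 7 tested of 10 listed was called by edgeR (median -2.04, 3 with an unadjusted p under 0.05). *GZMB.1*, a granzyme copy of cytotoxic cells, missed the threshold at 5.65, 10.0, 14.6, 8.07 and 30.8 against 81.7 and 65.98 CPM (-2.39 ± 0.52 (SE), adjusted p = 0.067), as did the mast cell protease gene *CPA3*, with no count in the blastemas and 2.89 and 3.17 CPM in the aged limbs (adjusted p = 0.057). DESeq2 called both lower.

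By size, the 10 highest calls among genes with an average log2 CPM above 1 began with *AMEX60DD044102*, which has no name, at 12.25, 31.0, 7.56, 26.2 and 17.3 CPM in blastemas, no count in the aged limbs and 0 to 0.296 CPM in juvenile limbs, at least 259-fold above the aged group. *AMEX60DD021537* followed, at 217, 45.1, 20.8, 53.1 and 132 against 0.178 and 0 CPM (9.78 ± 1.52 (SE), adjusted p = 0.017), with 2.31 to 112 CPM in juvenile limbs. *SHD* and *SHF.1*, signalling adaptors of one family, had no count in the aged limbs and 1.37 to 9.24 and 0.804 to 5.55 CPM in blastemas, at least 61.5-fold and 34.2-fold higher. The others were *LUM.1*, *LOC112547415.222* and 4 genes without a name.

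The 10 lowest calls included the muscle genes *CSRP3*, *NEB*, *MYOT*, *SLN* and *TCAP*, besides *NNMT.20* and 3 genes without a name. *MYOT* and *TCAP*, of the Z-disc, had 1 count each over the 5 blastemas, and ratios of 5923 and 5384 with 95% counting intervals of 1062 to 234033 and 966 to 212738. *SLN*, a regulator of the calcium pump, had none and was at least 674-fold lower. Of the 3 unnamed ones, *AMEX60DD035528* was at 93.1 and 13.4 CPM in the aged limbs and without a count in the blastemas, a difference of at least 1424-fold.

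Which of these genes go beyond the difference of blastema and juvenile limb was asked of the juvenile against the aged limbs, since that contrast is what remains when the difference of blastema and juvenile limb is taken from the difference of blastema and aged limb. The comparisons share libraries, so they are given side by side. Of 22076, 19961 and 24316 genes tested, blastemas against aged limbs gave 351 calls, blastemas against juvenile limbs 1488, and juvenile against aged limbs 25. These are 1.59%, 7.45% and 0.103% of the genes tested. Against juvenile limbs 371 genes were higher and 1117 lower in blastemas, 1.86% and 5.6%, where DESeq2 called 662 and 1974, or 2.14% and 6.39%. These fits did not pair libraries by replicate number. With the number as a block edgeR called 301 higher and 1093 lower. In juvenile against aged limbs 12 were higher and 13 lower, 0.0494% and 0.0535%, where DESeq2 called 237 and 68, or 0.921% and 0.264%. Of the 97 genes higher in blastemas than in aged limbs, 52 were also called against juvenile limbs, 43 were tested there and not called, and 2 were not tested. Of the 254 lower genes these numbers were 211, 17 and 26. The median log2 difference of the 97 higher genes was 1.57 against juvenile limbs, and 1.46 between juvenile and aged limbs over those tested there. For the 254 lower genes these medians were -8.33 and 0.39.

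Between juvenile and aged limbs edgeR called none of the 265 tested members of the 22 lists on tissues and pathways, 54 of which had an unadjusted p under 0.05, and DESeq2 called 18 higher in juvenile limbs and 0 lower. Some fitted differences were still well above 0 on the juvenile side. *TNC* differed by 5.35 between blastemas and aged limbs, 4.06 between blastemas and juvenile limbs and 1.23 ± 0.36 (SE), adjusted p = 0.44 between juvenile and aged limbs. For *MMP11* these log2 differences were 6.63, 5.29 and 1.28 ± 0.61 (SE), adjusted p = 0.69, and for *CTHRC1.1* 3.79, 1.65 and 2.07 ± 0.46 (SE), adjusted p = 0.25. For *CKM* they were -11.16, -12.70 and 1.47 ± 0.90 (SE), adjusted p = 0.78. A p that misses the threshold with 2 aged limbs does not show equal levels. The median log2 differences of the thick filament list were -8.92, -10.31 and 1.24, and those of the matrix list 2.34, 1.57 and 0.85.

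In both contrasts against the aged limbs, 19 genes were called in the same direction, 9 higher and 10 lower, which is 0.0888% of the 21407 genes tested in both. Of these, 16 have no name in the parts of the study's tables that were read. Among the higher ones, *AMEX60DD027179* had 15.02, 18.9, 17.7, 12.4 and 14.4 CPM in blastemas, 11.2, 16.0, 11.4, 13.4 and 17.9 CPM in juvenile limbs and 0.489 and 0.792 CPM in the aged limbs. Its log2 difference was 4.66 ± 0.39 (SE), adjusted p = 0.0013 in blastemas and 4.49 ± 0.41 (SE), adjusted p = 0.015 in juvenile limbs, both against aged limbs, and 0.11 ± 0.20 (SE), adjusted p = 0.78 between the first 2. Blastemas and juvenile limbs overlapped, and both lay wholly above the aged ones. The study had tied *AMEX60DD027179*, *TAF7L.2* and *DMBT1.17* of the 19 to age with these libraries. Their difference from the aged limbs is therefore no independent evidence.

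*AMEX60DD002115* repeated this pattern with 13.59, 11.3, 28.2, 12.14 and 16.1 CPM in blastemas, 30.2, 23.9, 26.9, 9.31 and 13.97 CPM in juvenile limbs and 0.0889 and 0.066 CPM in the aged limbs (7.94 ± 0.75 (SE), adjusted p = 0.015 in juvenile against aged limbs). The neighbouring identifiers *AMEX60DD008898* and *AMEX60DD008899* were both in the set. The second had 11.1, 8.00, 8.85, 4.38 and 2.33 CPM in blastemas, 10.5, 12.23, 12.17, 9.60 and 6.67 CPM in juvenile limbs and 0.0889 and 0.066 CPM in the aged limbs (6.92 ± 0.51 (SE), adjusted p = 0.0051 in juvenile against aged limbs). The first, with *AMEX60DD039476* and *AMEX60DD051665*, had no count in either aged limb, and the 3 were at least 46.1-fold, 55.2-fold and 67.2-fold higher in the blastemas.

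Far higher counts were seen for *AMEX60DD009937*, at 1913, 1606, 784, 2833 and 772 CPM in blastemas, 1705, 1500.3, 1993, 2109 and 1485 CPM in juvenile limbs and 96.8 and 176 CPM in the aged limbs, with log2 differences of 3.58 ± 0.71 (SE), adjusted p = 0.048 in blastemas and 3.72 ± 0.48 (SE), adjusted p = 0.036 in juvenile limbs. The named gene among the 9 was *TAF7L.2*, a copy of a subunit of the general transcription factor TFIID, at 9.19, 5.27, 6.84, 8.68 and 4.58 CPM in blastemas, 7.23, 5.56, 3.54, 5.34 and 5.096 CPM in juvenile limbs and 0.444 and 0.264 CPM in the aged limbs (4.27 ± 0.57 (SE), adjusted p = 0.0086 and 3.89 ± 0.50 (SE), adjusted p = 0.036). *AMEX60DD051665* alone of the 9 also differed between blastemas and juvenile limbs (1.12 ± 0.31 (SE), adjusted p = 0.045), with 2.93, 2.11, 3.14, 1.84 and 2.52 CPM in juvenile limbs against 7.56, 3.44, 5.23, 7.76 and 4.43 CPM in the blastemas.

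Of the 10 genes lower in both, that is higher in the aged limbs, *AMEX60DD020567* was at 76.4 and 78.7 CPM in the aged limbs, 1.05, 1.79, 1.13, 1.08 and 0.388 CPM in blastemas and 0.586, 1.15, 1.07, 0.889 and 0 CPM in juvenile limbs (-6.09 ± 0.41 (SE), adjusted p = 0.0012 and -6.67 ± 0.69 (SE), adjusted p = 0.025). *DMBT1.17*, a copy of a scavenger receptor gene of mucosal defence, was at 9.69 and 8.05 CPM in the aged limbs, 0, 0, 0.161, 0 and 0.0776 CPM in blastemas and 0, 0.414, 0.134, 0.296 and 0.189 CPM in juvenile limbs (-7.37 ± 0.87 (SE), adjusted p = 0.0054 and -5.34 ± 0.71 (SE), adjusted p = 0.042). *NNMT.19* was the other with a name and is described below. *AMEX60DDU001019514* had no count in any of the 10 libraries of juvenile animals and 9.73 and 6.47 CPM in the aged limbs, so that blastemas were at least 196-fold lower.

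The set depended on each library of the limbs. Without aged limb 1 none of the 19 genes stayed in it, without aged limb 2 the genes *AMEX60DD020567* and *AMEX60DD027179* did, and without 1 juvenile limb at a time 3 to 5 of the 19 did. DESeq2 kept 16 of them in a set of 142. In blastemas against aged limbs alone, *AMEX60DD027179*, *AMEX60DD002115*, *AMEX60DD009875*, *AMEX60DD051665* and *AMEX60DD020567* of the set were called without each library in turn. Age and the 2 individuals that stand for it cannot be told apart.

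**Figure D4:**
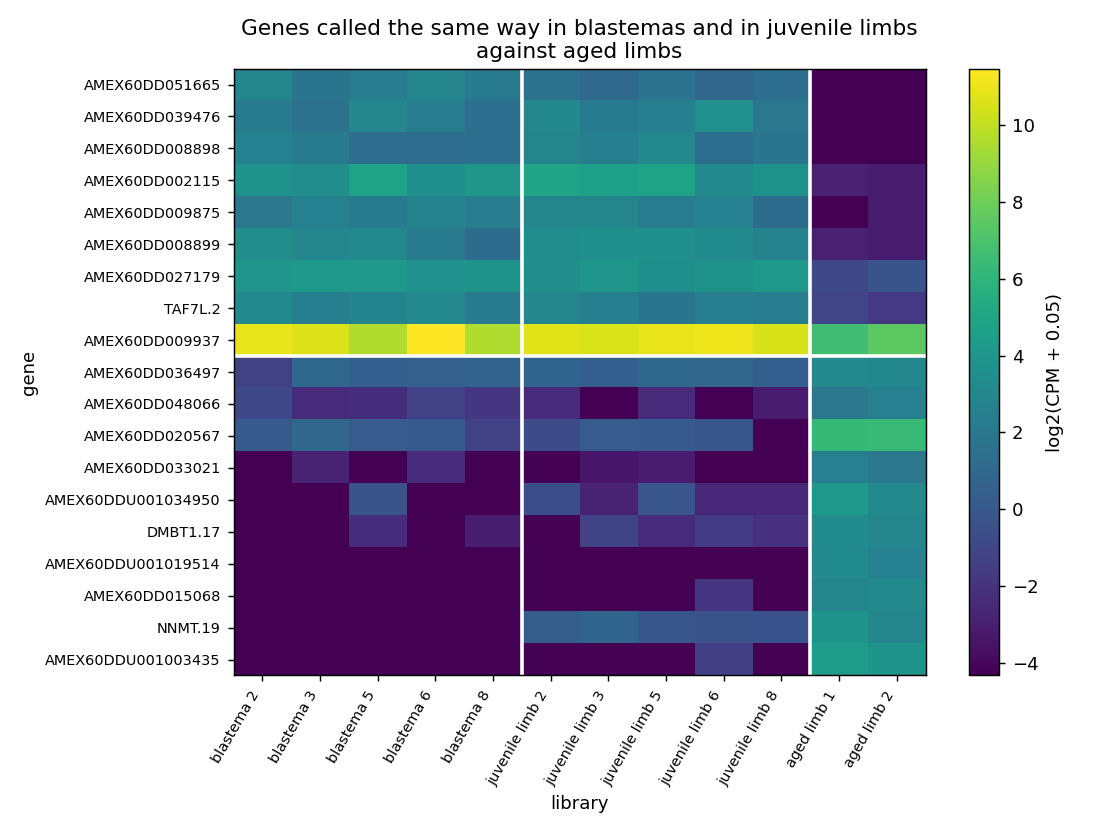
Level of the 19 genes called the same way in blastemas and in juvenile limbs against aged limbs, as log2(CPM + 0.05) by colour, with genes in rows and the 12 libraries in columns, white lines between groups and between the 9 higher and 10 lower genes. Blastemas and juvenile limbs share a colour in most rows and the 2 aged limbs differ from both, as in AMEX60DD020567, which is at 76.4 and 78.7 CPM in the aged limbs and at most 1.79 CPM elsewhere.

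A further list of 7 genes holds those that were picked on these same libraries as changing in blastemas and in aged limbs in opposite ways from the juvenile limbs, so the order of the groups is a description. By edgeR 6 of the 7 were called between blastemas and aged limbs and 1, *NNMT.19*, between juvenile and aged limbs. DESeq2, the tool of the study, called each of the 7 in both contrasts, 5 higher and 2 lower than in the aged limbs. The methyltransferase copies *NNMT.19* and *NNMT.20*, of an enzyme that methylates nicotinamide, had no count in the blastemas. *NNMT.20* was at 3.81, 2.39, 2.27, 3.26 and 0.818 CPM in juvenile limbs and 37.2 and 15.8 CPM in the aged limbs, and *NNMT.19* at 1.22, 1.65, 0.869, 0.771 and 0.755 and 14.3 and 7.85 CPM. The 3 groups did not overlap for either copy.

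The blastemas were at least 668-fold below the aged limbs in *NNMT.20* and at least 273-fold in *NNMT.19*, and the log2 difference of juvenile and aged limbs was -3.37 ± 0.49 (SE), adjusted p = 0.06 and -3.35 ± 0.40 (SE), adjusted p = 0.036. Reads shared by the copies make each one's value uncertain. *LOC112547415.222*, described as a likely long non-coding RNA, had 5.55, 10.7, 2.41, 8.22 and 3.88 CPM in blastemas, 0.23 to 1.95 CPM in juvenile limbs and no count in the aged limbs, at least 84.6-fold higher in blastemas (7.31 ± 1.89 (SE), adjusted p = 0.4 between juvenile and aged limbs). Between juvenile and aged limbs the log2 differences of *ADAMTS17.1* (2.23 ± 0.35 (SE), adjusted p = 0.073), *GPX7* (2.64 ± 0.60 (SE), adjusted p = 0.25) and *FSTL1* (1.61 ± 0.35 (SE), adjusted p = 0.22) were not called by edgeR. DESeq2 called these genes higher in juvenile limbs. By qPCR the study reports lower *ADAMTS17* in aged than in juvenile limbs.

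The rule on the size of the juvenile difference named 7 genes that were called against the aged limbs while their fitted difference to the juvenile limbs was under 25% of it or of the other sign. They were *BTBD8*, *TAF7L.2*, *PAFAH2*, *UBQ*, *LOC106702273.13*, *SELENOW* and *TCF23*, of which *TAF7L.2* was described above, and each is on a list of 19 genes that were tied to age on these same libraries and are no independent evidence. Of that list 15 were tested, and 7 were called higher and 4 lower in blastemas than in aged limbs, 2 higher and 1 lower in juvenile than in aged limbs. *PAFAH2*, an enzyme that clears oxidised phospholipids, was at 8.90, 7.44, 6.35, 9.06 and 6.75 CPM in blastemas, 8.75, 8.83, 3.21, 10.6 and 6.103 CPM in juvenile limbs and 0.755 and 0.264 CPM in the aged limbs. Its log2 difference was 3.90 ± 0.53 (SE), adjusted p = 0.0098 in blastemas and 3.85 ± 0.65 (SE), adjusted p = 0.1 in juvenile limbs, the latter not called.

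*BTBD8*, a protein of clathrin-coated vesicles, was at 4.69, 5.08, 6.03, 2.84 and 5.36 CPM in blastemas, 2.88, 3.77, 7.75, 3.50 and 9.37 CPM in juvenile limbs and 0.0889 and 0 CPM in the aged limbs (6.38 ± 0.85 (SE), adjusted p = 0.0086 and 6.57 ± 0.97 (SE), adjusted p = 0.06). *SELENOW*, a small selenoprotein, was at 23.2, 31.2, 31.3, 26.8 and 19.8 CPM in blastemas, 17.9, 20.8, 19.1, 21.3 and 29.6 CPM in juvenile limbs and 9.33 and 5.28 CPM in the aged limbs (1.89 ± 0.34 (SE), adjusted p = 0.032 and 1.60 ± 0.34 (SE), adjusted p = 0.22). In both genes the juvenile limbs lay with the blastemas, above the aged limbs. *TCF23*, a basic helix-loop-helix factor, had 0.574, 3.39, 2.49, 2.38 and 3.34 CPM in blastemas and no count in the aged limbs, at least 32.8-fold higher. The reverse was seen for *UBQ*, a ubiquitin gene by its symbol, at 14.7 and 10.5 CPM in the aged limbs, 2.01, 3.62, 3.70, 2.38 and 2.48 CPM in blastemas and 4.01, 3.86, 2.47, 1.54 and 2.26 CPM in juvenile limbs (-2.11 ± 0.34 (SE), adjusted p = 0.022 and -2.12 ± 0.38 (SE), adjusted p = 0.12). *PAFAH2* and *BTBD8* were called in blastemas against aged limbs without each library in turn.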

How the data were processed

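RNA of 5 blastemas, 5 juvenile limbs and 2 aged limbs was sequenced after ribosomal depletion (Ribo-Zero Gold) with a SMARTer Stranded V2 kit. The deposited values are raw counts per gene, which the authors made by trimming reads with Trimmomatic 0.39, aligning them with STAR 2.7.9a to the axolotl genome AmexG_v6.0-DD and counting them with featureCounts against the annotation AmexT_v47. The settings for strand and for reads shared by gene copies are not given in the sources used here. The single-library files equalled the joint table in 12 of 12 libraries, and 0 columns were left unmapped.

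Counts were tested in R 4.3.3 with edgeR 4.0.16 (filterByExpr, trimmed-mean scaling, glmQLFit, glmQLFTest), in a fit of the 2 groups compared, and p-values were adjusted over the genes tested (Benjamini-Hochberg). Differences are on the log2 scale, first group minus second. The value marked SE is the absolute log2 difference divided by the square root of the F statistic of its test. It is not a separate estimate of error. DESeq2 1.42.0 was the other tool. The fits of blastemas against aged limbs by both tools were tested on simulated data, and the other comparisons and steps were not. The simulation changed 200 genes and gave every gene the same spread between libraries. It therefore does not show how the fits behave where libraries of a group differ widely, as the 2 aged limbs do in muscle. Figures were drawn with Python 3.11.15 and matplotlib 3.10.9. A gene without a count in 1 group has its fold given as a bound at 3 counts over that group, and a gene with 1 to 3 counts as a ratio with an exact 95% interval, both covering counting error only. Replicates of a group are separate animals.

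Members and lists were chosen with earlier results of these data known. Genes were named by rule: up to 6 called members of each list by size, the 10 called genes furthest in each direction, where groups did not overlap and average log2 CPM exceeded 1, the genes called the same way in juvenile against aged limbs (the first 12 of them by adjusted p), the list of opposite directions, the limb markers TBX4 and TBX5, and up to 10 named genes whose difference to juvenile limbs was under 25% of that to aged limbs. Other genes named were chosen after their values were seen. Some genes that the rule names are not reported here. Alternatives were another tool, all 12 libraries in the fit, other scalings, other filters, other thresholds, the replicate number as a block and each library left out.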

Additional observations from a re-analysis of the deposited data

Results flagged for a closer look

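Of 135 groups of 5 libraries examined, over the 70 genes whose values are given by library, 9 held a library whose gap to its nearest neighbour was above 0.71 of the whole range of the group, a gap that chance gives in about 1 in 20 groups. In the blastemas these were the level of KAZALD1.2 in blastema 2, at 324 CPM against 54.3 CPM in the next, and that of TNXB in blastema 2, at 0.861 against 0.154 CPM. Blastema 5 held 0.241 CPM of CSRP3 against 0 elsewhere, and 28.2 CPM of AMEX60DD002115 against 16.1 CPM. Blastema 6 held 6.76 CPM of CTSS against 2.35 CPM. Blastema 8 held 23.6 CPM of the myosin gene MYH2.1 against 2.25 CPM and 188 CPM of the nerve filament gene PRPH.1 against 40.3 CPM. In the juvenile limbs, PDK4 stood at 25.1 CPM in juvenile limb 5 against 9.65 CPM in the next, and TBX5 at 8.87 CPM in juvenile limb 8 against 4.68 CPM. Among these genes the test of blastemas against aged limbs called TNXB, CSRP3, AMEX60DD002115, CTSS, MYH2.1 and PDK4.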

How the results depend on the processing

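The direction of the 90 named calls against the aged limbs that were followed held in each alternative, whereas the number of calls did not. Some calls named above, such as those of MFAP2, MYH2.1 and PLN, were not among the 90. DESeq2 on the libraries compared called 525 genes higher and 561 lower in blastemas than in aged limbs, 662 and 1974 against juvenile limbs, and 237 and 68 in juvenile against aged limbs, with 142 genes called the same way in blastemas and in juvenile limbs. With all 12 libraries in the fit, edgeR gave 223 and 785 against aged limbs and 5 genes lower in juvenile than in aged limbs, and DESeq2 gave 647 and 1074, with 114 genes called the same way. Without a filter edgeR gave 728, 1139 and 325, and tested against a log2 difference of 1 it gave 45 higher genes and 5 called the same way. The median log2 difference of juvenile and aged limbs over the genes tested was 0.04 with edgeR and 0.61 with edgeR without a filter. With DESeq2 the median was 0.66 over all genes with a count, including those without an adjusted p, so it covers another set of genes. The share of calls that were higher in blastemas went from 27.6% to 48.3% with DESeq2 and 39.0% without a filter.

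Leaving out 1 library at a time gave 13 to 158 higher and 60 to 391 lower genes against aged limbs, the lowest without aged limb 1 and the highest without blastema 2. Blastemas 3, 5 and 6 and, for the higher genes, aged limb 2 also moved the count by over 1.5 times. In juvenile against aged limbs, 0 to 5 genes were higher and 0 to 4 lower, and 0 to 21 genes were called the same way in both. The list counts without each library were chosen after seeing the data. Of the 90 named calls, 29 were kept without aged limb 1, 60 without aged limb 2, 55 to 87 without a blastema and 89 with DESeq2. Uncalled differences changed sign for TBX5 (0.15, 0.21 and 0.13 without blastema 3, 5 and 6, 0.40 without aged limb 1, and -1.0013 to 0.40 over the libraries), TBX5.1 (-0.44 without blastema 2, -0.18 without aged limb 2, and -0.44 to 1.1096) and RAN (0.15 without aged limb 2, and -0.25 to 0.15), and the cause was not tested.

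By the study's account blastemas and juvenile limbs came from 5 juvenile animals, and the 2 groups carry the same replicate numbers. No source used here says that a number marks 1 animal. The deviations of libraries numbered 2, 3, 5, 6 and 8 from their group means correlated across genes at -0.000565, 0.215, 0.00549, 0.145 and 0.169, and 3 of 5 blastemas and 3 of 5 juvenile limbs correlated best with the library of their own number. With the number as a replicate block, 301 genes were higher and 1093 lower in blastemas than in juvenile limbs. Among named genes the calls of CTHRC1 (2.05, adjusted p = 0.069 by edgeR) and AMEX60DD051665 (1.07, adjusted p = 0.093) were not made, PTPRB and PRPH.1 became called at -2.22 and -2.44, and the uncalled differences of TBX5.1 and PAFAH2 changed sign to -0.10 and 0.064. No paired analysis was possible because, for comparisons with aged limbs, the groups share no animal. Total counts of 12975883 or more a library leave genes with few counts, such as those at or near 0 in a group, known by bounds only.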

Other observations

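Of 4 genes of bone mineralisation, 3 did not pass the filter on low counts in blastemas and aged limbs. BGLAP, encoding the bone matrix protein osteocalcin, had no count in any blastema, 0 and 0.264 CPM in the aged limbs and 3.71, 8.41, 9.43, 9.07 and 2.83 CPM in the juvenile limbs. SMPD3, a sphingomyelinase needed for mineralisation in mice, had 0 to 0.307 CPM in blastemas, 0.133 and 0 CPM in aged limbs and 2.67 to 5.08 CPM in the juvenile limbs. PHOSPHO1, a phosphatase of mineralising cells, overlapped between blastemas and aged limbs, at 1.24 to 5.22 CPM and 1.33 and 3.04 CPM, and lay at 9.43 to 18.4 CPM in the juvenile limbs. In juvenile against aged limbs none of the 4 members was called by edgeR, while 4 had an unadjusted p under 0.05 and DESeq2 called 4 higher in juvenile limbs. The part of the limb that each sample held is not given, and its part in these values was not tested.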
